A study of Schizosaccharomyces pombe with 2 samples.

Results

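Haem biosynthesis was followed through the transcripts of 7 genes of fission yeast, Schizosaccharomyces pombe: hem1, hem2, hem3, hem12, hem13, hem14 and hem15. The 7 were taken by identifier, in the order of their steps in the pathway, from a table of 5076 genes, and the annotated product of each is the enzyme its symbol stands for. The study set 1 RNA sequencing library of cells with ppr10 deleted against 1 library of wild-type cells, both from cultures in logarithmic growth, and its stated aim was to find why cells die. The deleted gene codes for a pentatricopeptide repeat (PPR) protein of the mitochondrion; such proteins bind organelle RNA. The sources used here do not give the strain background, the medium or the number of independent deletion clones.

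Haem is an iron-bearing ring that serves as the working group of cytochromes, catalase and several oxygenases. In fungi its synthesis starts in the mitochondrion, where glycine and succinyl-CoA are joined, passes through the cytosol, where the ring is assembled and trimmed, and ends in the mitochondrion, where the ring is oxidised and iron is inserted. The respiratory complexes of the inner mitochondrial membrane are among the main users of the product.

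The libraries held 16885000 uniquely mapped reads in genes for the deletion and 17053000 for the wild type, each to the nearest 1000. Levels are RPKM, reads per kilobase of coding length scaled to the reads in genes of the library, so that levels of different genes can be set side by side. As a check of the labels, ppr10 (SPBC106.19) had 12 reads in the deletion library and 1879 in the wild type. With 1 library per group there is no test and no replicate check. Each ratio below is deletion over wild type with an exact (Clopper-Pearson) 95% interval from the reads, and each level has an exact Poisson 95% interval. PCR-amplified reads are not independent molecules, so both kinds of interval cover counting error only. Because each library is a bulk culture, a change in part of the cells and a change in every cell cannot be told apart.

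In the deletion library the first enzyme of the pathway and coproporphyrinogen III oxidase were moderately higher, and the third enzyme was lower. The other 4 lay close to the wild-type level. The ratio was 1.40 for hem13, 1.25 for hem1 and 0.619 for hem3, and between 0.940 and 1.02 for hem2, hem12, hem14 and hem15. By a rule of size that calls a gene at a 2-fold difference in RPKM + 1, 0 of 7 were higher and 0 of 7 lower. All 7 were among the 4986 genes with a mean of at least 1 RPKM to which the rule was applied; of these genes 2.79% were higher and 1.14% lower. At 1.5-fold, hem3 alone of the 7 was lower and none was higher, against 4.49% of genes lower and 7.94% higher. The median log2 difference of the 7 was −0.05, beside 0.05 for all 4986 genes with quartiles at −0.17 and 0.26, and 4 of the 7 lay between those quartiles.

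**Figure D1:**
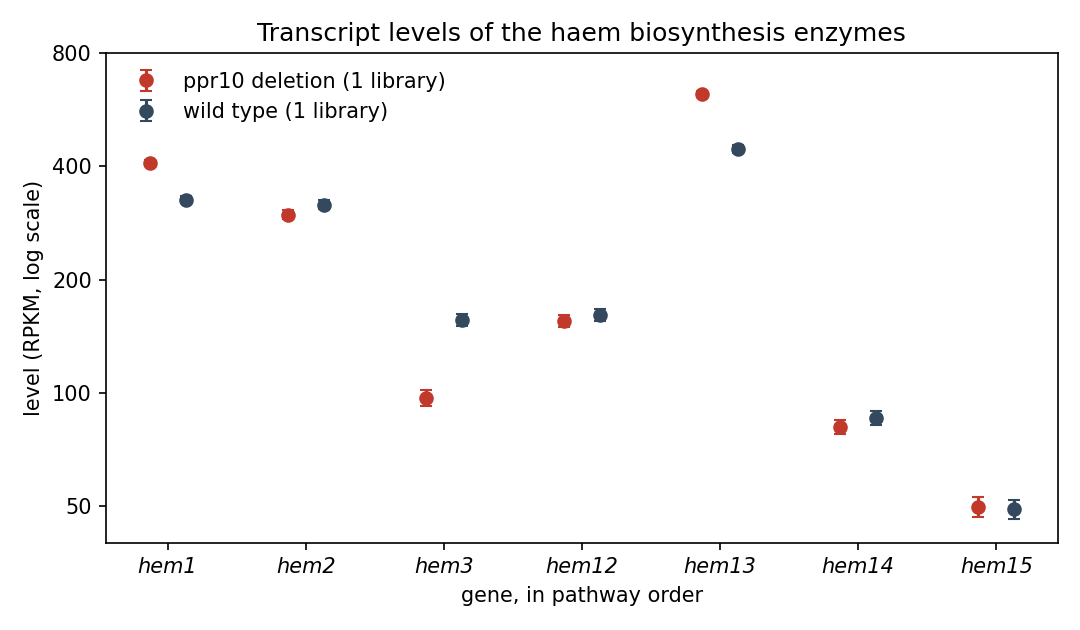
Levels of the 7 transcripts in RPKM on a log scale, in pathway order, with the deletion library left of the wild type; points are single libraries and bars are exact Poisson 95% intervals of the reads. The deletion points lie above the wild type for hem1 and hem13 and below it for hem3, and nearly coincide for hem15 at 49.8 and 49.0 RPKM.

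The mitochondrial entry step is catalysed by 5-aminolevulinate synthase, the product of hem1 (SPAC2F3.09, chromosome I). Its transcript stood at 408 RPKM (400.4 to 415) from 11549 reads in the deletion library, against 326 RPKM (320 to 333) from 9327 reads in the wild type. The intervals did not overlap, and the ratio was 1.25 (1.22 to 1.29), a log2 difference of 0.32 on the RPKM + 1 scale. A difference of this size was not rare: 998 of the 4986 genes, or 20.0%, had a larger positive one.

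The next enzyme, porphobilinogen synthase, joins aminolevulinate molecules into the pyrrole building block in the cytosol and is encoded by hem2 (SPAC1805.06c, chromosome I). Here the deletion library had 297 RPKM (289 to 306) and the wild type 316 RPKM (308 to 325). On deposited RPKM the ratio of 0.940 (0.904 to 0.977) put hem2 slightly lower in the deletion library. The log2 difference was −0.09, which 1610 of the 4986 genes equalled or went below.

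Hydroxymethylbilane synthase links the pyrroles into a linear tetrapyrrole; its gene is hem3 (SPAC24B11.13, chromosome I). This was the member with the largest difference, at 96.8 RPKM (92.2 to 102) from 1652 reads in the deletion library, against 156 RPKM (151 to 162) from 2697 reads in the wild type. The libraries were far apart compared with counting error, with a ratio of 0.619 (0.582 to 0.658) and a log2 difference of −0.69. Only 151 of the 4986 genes, or 3.03%, were at or below that difference, hem3 included. By level, hem3 stood at or above 61.6% of the genes in the deletion library and at or above 77.8% in the wild type. With 2 libraries a pattern is no more than 1 level and 1 difference, and 9 other genes lay within 0.05 of the log2 difference of hem3 and within 25% of its mean level.

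Uroporphyrinogen decarboxylase, which trims the side chains of the closed ring, is the product of hem12 (SPCC4B3.05c, chromosome III). Its level was 155 RPKM (150 to 161) in the deletion library and 161 RPKM (155 to 167) in the wild type. These intervals overlapped, and on deposited RPKM the ratio of 0.965 (0.916 to 1.02) did not separate the libraries at this depth. Between hem3 and hem12 the linear tetrapyrrole is closed by uroporphyrinogen-III synthase, encoded by hem4, which is not one of the 7. The hem4 transcript stood at 110 RPKM in the deletion library and 123 RPKM in the wild type, a ratio of 0.900 (0.837 to 0.968). The lower level of hem3 was therefore flanked on either side by steps whose transcripts had ratios of 0.900 to 0.965.

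Coproporphyrinogen III oxidase consumes molecular oxygen, and its budding yeast counterpart HEM13 is known for rising when oxygen or haem is scarce. The fission yeast gene hem13 (SPAC222.11, chromosome I) had the highest level of the 7, at 623 RPKM (610 to 635) from 9870 reads in the deletion library and 444 RPKM (434 to 455) from 7112 reads in the wild type. Its ratio of 1.40 (1.36 to 1.45), a log2 difference of 0.49, was the largest positive one among the 7. Across the table, 538 of the 4986 genes (10.8%) had a larger positive difference.

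The last 2 steps return to the mitochondrion and were carried by the least abundant transcripts of the 7. Protoporphyrinogen oxidase, which makes the ring fully conjugated, is encoded by hem14 (SPAC1F5.07c, chromosome I), with 81.2 RPKM (77.7 to 84.8) in the deletion library and 85.8 RPKM (82.2 to 89.5) in the wild type. Ferrochelatase, which inserts ferrous iron, is encoded by hem15 (SPCC320.09, chromosome III), with 49.8 RPKM (46.8 to 52.8) in the deletion library and 49.0 RPKM (46.1 to 52.0) in the wild type. The intervals overlapped for both genes. On deposited RPKM the ratios were 0.947 (0.890 to 1.01) for hem14 and 1.02 (0.932 to 1.11) for hem15. On that scaling no difference was detectable at this depth for either. The log2 difference of hem14 was −0.08 on deposited RPKM and −0.13 with TMM factors, and the intervals do not cover the choice of scaling. The intervals still exclude a change of 1.5-fold in these 2 libraries. The sign of the small hem15 difference depended on scaling, with a log2 value of 0.02 on deposited RPKM, −0.03 after scaling to the median gene and −0.03 with TMM factors.

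**Figure D2:**
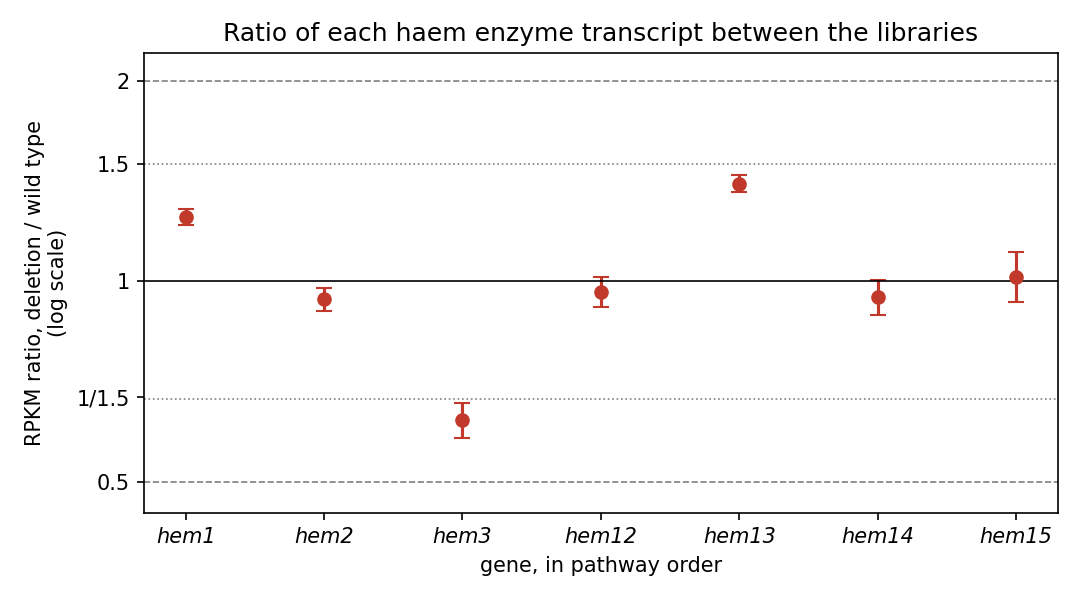
Ratio of RPKM, deletion over wild type, for each gene on a log scale with exact 95% intervals from the reads; dashed lines mark 2-fold and dotted lines 1.5-fold. The point of hem3 (0.619) lies below the lower dotted line, hem13 (1.40) and hem1 (1.25) lie between 1 and the upper one, and the other 4 lie within 0.940 to 1.02.

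The order of the levels was the same in both libraries: hem13, hem1, hem2, hem12, hem3, hem14, hem15. In the deletion library no 2 neighbours in that order had overlapping intervals. In the wild type hem1 and hem2 overlapped, at a ratio of 1.03, and so did hem12 and hem3, also at 1.03. In the deletion library the same neighbours were 1.37-fold and 1.60-fold apart. The span from hem13 to hem15 was 12.5-fold in the deletion library and 9.06-fold in the wild type. Summed over the 7, the level was 1711 RPKM in the deletion library and 1539 RPKM in the wild type, while without hem1 and hem13 it was 680.4 RPKM in the deletion and 768 RPKM in the wild type. Thus hem1 and hem13 together held 60.2% of the summed level in the deletion library and 50.1% in the wild type. These genes were grouped after their higher levels in the deletion library were seen, so the larger share there follows from that choice. The median of the 4986 genes was 74.6 RPKM in the deletion library and 68.4 RPKM in the wild type, so that only hem15 lay below the typical gene in each.

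**Figure D3:**
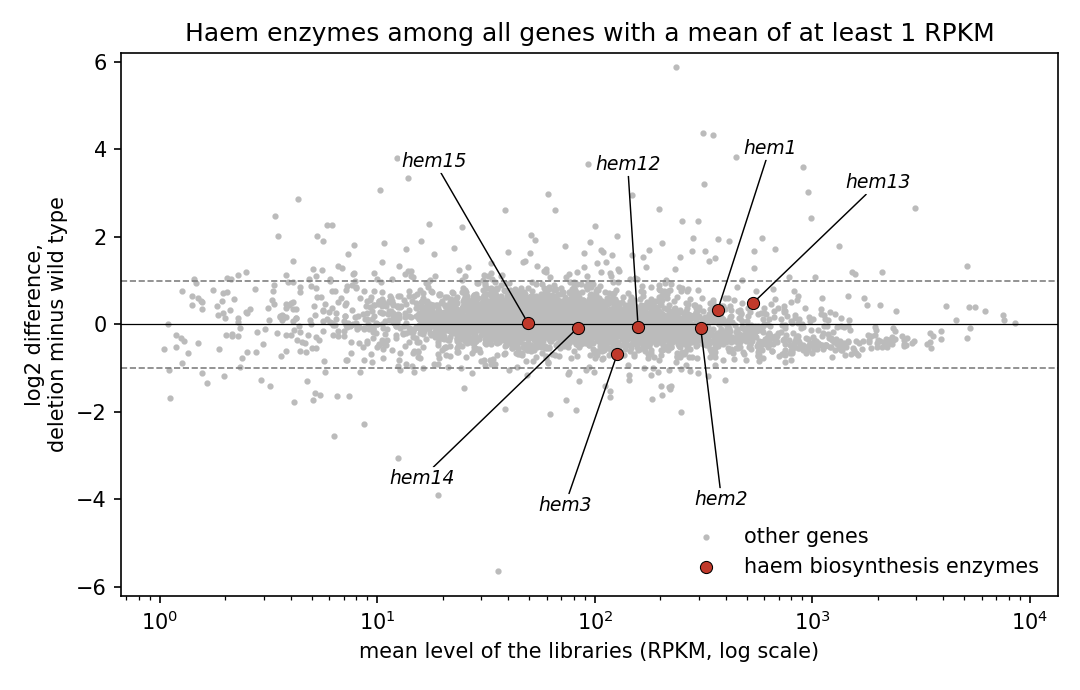
Log2 difference of RPKM + 1, deletion minus wild type, against the mean level of both libraries in RPKM on a log scale, for 4986 genes (grey) and the 7 haem enzymes (red); dashed lines mark 2-fold. All 7 lie between the dashed lines, from −0.69 for hem3 to 0.49 for hem13.

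How far the enzymes moved against each other can be read without any scaling of the libraries, since a ratio of 2 genes within a library does not depend on its size. For each of the 21 pairs the ratio in the deletion library was divided by that in the wild type, with an exact conditional 95% interval from the 4 read counts, a summary chosen after the values were seen. The interval left out 1 for all 15 pairs that include hem1, hem3 or hem13. It included 1 for all 6 pairs among hem2, hem12, hem14 and hem15. The same count was not made for pairs of other genes. These intervals cover counting error only, so the count does not set the haem enzymes apart from other genes. The balance of hem1 to hem3 was 4.21 in the deletion library and 2.08 in the wild type, a 2.02-fold change (1.89 to 2.16). For hem3 to hem13 it was 0.155 in the deletion library and 0.352 in the wild type, a change of 0.441 (0.412 to 0.473). The genes with higher levels, hem1 and hem13, also differed from each other, with a change of 0.892 (0.856 to 0.930). By contrast hem2 and hem14 had a balance of 3.66 in the deletion library and 3.69 in the wild type, a change of 0.993 (0.923 to 1.07).

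**Figure D4:**
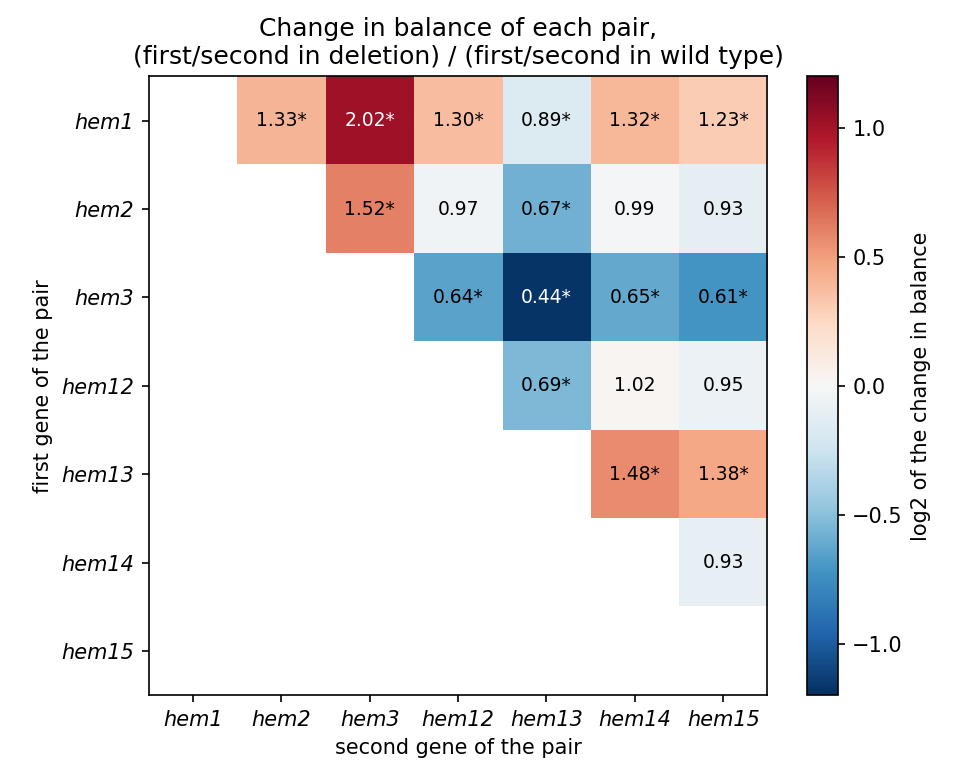
Change in balance of each pair of haem enzyme transcripts, as the ratio of the first to the second gene in the deletion library divided by the same ratio in the wild type; colour is its log2 and a star marks a 95% interval without 1. The row and column of hem3 hold the strongest colours, with 2.02 against hem1 and 0.44 against hem13, and the pairs among hem2, hem12, hem14 and hem15 carry no star.

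The identity of the counted sequences was checked against the reference. The listed coding length of all 7 equals that in the reference annotation ASM294v3, and no exact stretch of 50 bases in their coding parts occurs elsewhere in that genome; copies that differ at scattered bases were not searched for. Strand is a limit, since the sources used here do not say whether it was kept. Noncoding RNAs annotated on the opposite strand overlap the coding parts of hem1, hem2, hem3, hem12 and hem15, and the gene lsh1 overlaps that of hem14 from the opposite strand. Their reads cannot then be told apart from those of the enzyme genes, and the part of this overlap in the differences was not tested. No gene overlaps the coding part of hem13. The gene lsh1 itself stood at 158 RPKM in the deletion library and 143 RPKM in the wild type, a ratio of 1.11 (1.07 to 1.15).

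The protein-coding genes on either side of the 7 were examined as well. By the 2-fold rule 2.79% of all 4986 genes were higher and 1.14% lower. Of the 14 neighbours, 1 was higher, none was lower and 13 lay between. The higher one was SPCC4B3.06c beside hem12, at 149 RPKM in the deletion library and 64.4 RPKM in the wild type, while hem12 itself had a ratio of 0.965. Beside hem3, SPAC24B11.14 had a log2 difference of −0.65, close to that of hem3, but from very few reads, at 0.827 RPKM in the deletion library and 1.87 RPKM in the wild type, and its ratio interval (0.154 to 1.14) includes 1. On the other side of hem3, SPAC806.02c had a ratio of 1.11 (1.07 to 1.16).

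Genes that branch from the pathway or finish its product were set beside the 7 enzymes. Their list also held hem4, whose step lies within the pathway between hem3 and hem12. Of the 7 genes in that list, hem4 included, 0 were higher and 0 lower by the 2-fold rule, against 2.79% and 1.14% of all 4986 genes. With shares that small, 0 of 7 does not set this list apart. The median log2 difference of the 7 listed genes was 0.09. The largest difference was that of met1, whose uroporphyrin methyltransferase diverts the ring at the intermediate that hem12 also uses, towards the sirohaem of sulfite reductase. The level of met1 was 258 RPKM in the deletion library and 138 RPKM in the wild type, a ratio of 1.87 (1.80 to 1.95). Set against hem12, met1 stood at 1.66 in the deletion library and 0.857 in the wild type, a change in balance of 1.94 (1.81 to 2.07), a pair chosen after its values were seen. The sirohaem synthase gene met8 had a ratio of 1.12 (1.03 to 1.22) and cyt2, the haem lyase gene for cytochrome c1, a ratio of 0.797 (0.744 to 0.854).

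Of 9 genes listed for the supply of glycine and succinyl-CoA, the substrates of the hem1 enzyme, none passed the 2-fold rule. Of all 4986 genes, 2.79% were higher and 1.14% lower by that rule. Among the 9, 7 had negative differences. The median of the 9 was −0.25, beside 0.05 for all 4986 genes with a lower quartile of −0.17. Because the list was chosen with earlier results of these data known, these values are description only. One listed symbol, lsc1, belongs in this species to a cyclin and was among the 7 negative ones. Without lsc1 the median of the remaining 8 was −0.30. The ratio was 0.563 (0.539 to 0.588) for kgd2, a subunit of the complex that makes succinyl-CoA, and 0.669 (0.631 to 0.709) for lsc2, a subunit of succinate-CoA ligase. The serine hydroxymethyltransferase genes shm2 and shm1, whose enzymes produce glycine, had ratios of 0.730 (0.700 to 0.762) and 0.784 (0.773 to 0.794). Only 2 in the list lay above 1, as hem1 did. The ratio of gly1, for a threonine aldolase that also yields glycine, was 1.19 (1.16 to 1.22). That of dld1, the dihydrolipoamide dehydrogenase gene, was 1.11 (1.09 to 1.14). The glycine transporter gene hem25 lay below 1 at 0.835 (0.751 to 0.928). So did kgd1, for alpha-ketoglutarate dehydrogenase, at 0.846 (0.813 to 0.880). The genes gly1, dld1, hem25 and kgd1 were chosen after their values were seen.

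For the metal substrate of ferrochelatase, 14 genes of mitochondrial iron delivery and iron-sulphur assembly were listed. All 14 lay between the 2-fold limits, where 2.79% of all 4986 genes were higher and 1.14% lower. The median of the 14 was 0.09. The mitochondrial iron carrier gene mrs3 had a ratio of 1.53 (1.38 to 1.71), the scaffold gene isu1 one of 1.49 (1.35 to 1.64) and the transporter gene atm1 one of 1.18 (1.10 to 1.26). The gene isd11, of the cysteine desulfurase complex, had a ratio of 0.818 (0.711 to 0.941). The ratio of hem15 itself was 1.02.

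Among 14 genes for proteins that carry haem, sirohaem or a haem-binding domain, the 2-fold rule called 3 higher and 2 lower. The other 9 lay between, and the shares over all genes were 2.79% higher and 1.14% lower. The list was chosen with earlier results of these data known, so these counts are description only. The median log2 difference of the 14 was −0.22, with 10 negative and 4 positive. At 1.5-fold 4 were lower and 3 higher, against 4.49% of all genes lower and 7.94% higher. The ferric reductase genes frp1 and frp2 had ratios of 4.27 (3.89 to 4.69) and 4.23 (3.46 to 5.22), and yhb1, for a nitric oxide dioxygenase, had 3.32 (3.24 to 3.42). The cytochrome c1 gene cyt1 stood at 178 RPKM in the deletion library and 372 RPKM in the wild type, a ratio of 0.478 (0.457 to 0.5002). The other one that was lower was tim18, listed under its older symbol sdh4, at a ratio of 0.496 (0.460 to 0.536) and a log2 difference of −1.005. That call was borderline: the log2 difference was −0.98 with a pseudocount of 5 RPKM and −0.96 in TPM, which left 1 of the 14 lower.

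Of 10 genes for regulators of iron, oxygen and sterol responses, the 2-fold rule called 2 higher and 0 lower and left 8 between. Of all 4986 genes, 2.79% were higher and 1.14% lower. This list too was chosen with earlier results of these data known, so its counts are description only. The median log2 difference of the 10 was 0.24. The 2 were php4 at 2.32 (2.13 to 2.53) and php2 at 2.11 (1.86 to 2.40), subunits of the CCAAT-binding complex. The other listed subunits were not called, with php3 at 1.05 (0.953 to 1.17) and php5 at 0.895 (0.838 to 0.956). Both were chosen after their values were seen. The call of php2 was borderline, and 1 of 10 was higher with a pseudocount of 5 RPKM, after scaling to the median gene or with TMM factors, where its log2 difference was 0.93, 0.9954 and 0.9975 in that order. The ratio of sre1, the sterol and oxygen response factor, was 1.57 (1.502 to 1.63) and that of fep1, the iron-sensing repressor, 1.29 (1.19 to 1.41). Both listed genes for uptake from outside the cell, which were listed with their values known, were higher: shu1, for haem acquisition, with 274 reads in the deletion library and 9 in the wild type, and str3, annotated as a siderophore transporter, at a ratio of 6.58 (5.85 to 7.41). The log2 differences of the uptake genes were 3.81 for shu1 and 2.60 for str3, beside a range of −0.69 to 0.49 among the 7 enzymes of haem synthesis.

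**Figure D5:**
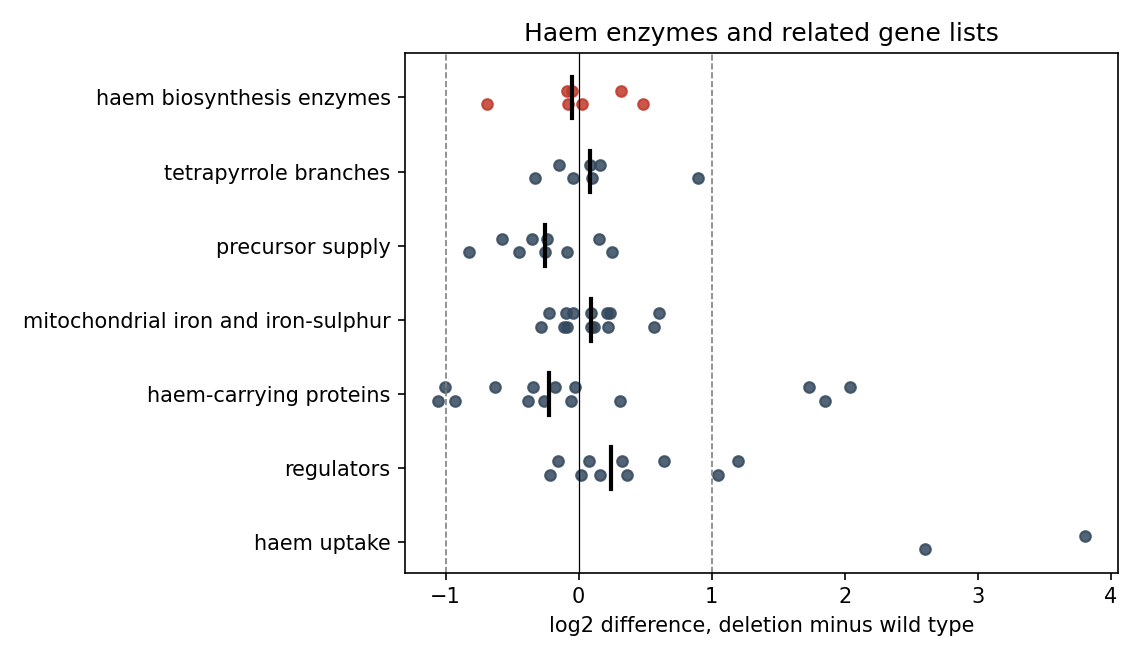
Log2 difference of RPKM + 1, deletion minus wild type, for each gene of the pathway (red) and of the related lists (blue); vertical bars are medians of lists with more than 2 genes and dashed lines mark 2-fold. The 7 haem enzymes span −0.69 to 0.49, the 14 genes of haem-carrying proteins −1.06 to 2.04, and the 2 uptake genes stand at 2.60 and 3.81.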

How the data were processed

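Gene expression was measured by RNA sequencing in 1 ppr10 deletion and 1 wild-type library; columns were assigned from the labels. Per the labels' protocols, RNA was extracted with Trizol and libraries were made with a NEBNext Ultra RNA kit. Per the submitters' processing notes, Bowtie2 2.2.3, TopHat2 2.0.12 and build ASM294v2 were used; the sources used here do not give the annotation release, strand setting or filters. Per the file headers, the deposited table holds a coding length, a count of uniquely mapped reads, an RPKM value and a coverage score per gene and library. The authors computed the deposited RPKM from these reads; recomputing them gave a largest difference of 4.99e-07. The coverage score was not used. A dash was read as 0. Lengths are multiples of 3 for 5075 of 5076 genes, hence coding lengths.

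Differences were log2((deletion RPKM + 1)/(wild-type RPKM + 1)), for genes whose mean reached 1 RPKM, with no test. Ratios and intervals used reads (Python 3.11.15, scipy 1.17.1); the calculation was tested on simulated data. TMM factors came from edgeR 4.0.16. Names came from ASM294v3 (5048 identifiers by locus tag, 1 by a synonym, 27 unmatched), from which no coordinates or sequences are given. The text names the 7 enzymes, ppr10, and the 4 genes of each list with the largest absolute difference and a mean of 5 RPKM or more (all genes of lists of up to 6); others were chosen after their values were seen. Members and lists were chosen with earlier results of these data known. Of 10 precursor supply names, 1 was not found.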

Additional observations from a re-analysis of the deposited data

How the results depend on the processing

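Pseudocounts of 0.1 and 5 RPKM, scaling to the median gene, TPM, reads without the 50 most abundant genes, TMM factors, no filter and a mean RPKM of at least 5 left 0 of 7 enzymes higher and 0 of 7 lower. With a 1.5-fold rule 1 of the 7 was lower, and 396 of all genes were higher and 224 lower; a pseudocount of 5 RPKM left 37 genes lower, against 57 with 1 RPKM. Both changes follow from the arithmetic of the rule. A 1.5-fold limit can only add calls, and a larger pseudocount shrinks log2 differences, most at low levels. The log2 difference ranged from −0.74 to −0.65 for hem3, 0.44 to 0.53 for hem13 and 0.27 to 0.36 for hem1 across these settings. It ranged from −0.14 to −0.05 for hem2, −0.10 to −0.01 for hem12 and −0.13 to −0.04 for hem14. Only hem15 of the 7 changed sign (−0.03 to 0.06). Ratio intervals were computed on deposited RPKM only, and whether those of hem2, hem12 and hem14 include 1 was not tested under other scalings. Of 42 recomputed values of single enzymes 37 moved by less than their counting interval. In the related lists, counted under the same settings after the values were seen, the 2-fold counts changed for regulators (1 or 2 higher) and haem-carrying proteins (1 or 2 lower) only. No paired analysis was possible because there is a single library of each genotype, and for that reason no replicate was left out.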
